A study of Mus musculus with 8 samples.

Results

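The phase II conjugation genes of 3 enzyme families, UDP-glycosyltransferases (UGT), cytosolic sulfotransferases (SULT) and soluble glutathione S-transferases (GST), were followed across 4 groups of primary mouse hepatocytes that differed in the 2 heme oxygenases, HO1 and HO2. Members were all genes whose symbol, on a probe set annotated with a single symbol, begins with Ugt1, Ugt2, Ugt3 or Sult, or names a class a, k, m, o, p, t or z GST. This gave 45 of the 19937 genes tested: 10 UGT, 16 SULT and 19 GST genes. Only Gstm3 had 2 such probe sets, and its brighter one was used. All 10 UGT genes belong to families 2 and 3. Another 10 probe sets carry several symbols each, among them all 8 Ugt1 symbols annotated here, and were not analysed here.

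Each group held 2 arrays of cells from male BALB/c mice, isolated by collagenase perfusion and a Percoll step, transduced with a pLKO.1 lentivirus carrying 1 hairpin, and selected with puromycin. The HO1 knockout group had HO1-/- cells with scrambled shRNA, the HO2 knockdown group HO1+/+ cells with HO2 shRNA, the combined group HO1-/- cells with HO2 shRNA, and the control group HO1+/+ cells with scrambled shRNA. All 4 groups therefore carried a lentivirus, underwent 3 days of selection starting 24 h after transduction, and received 1 µM dexamethasone for 30 min before harvest 28 h later. The labels call the 2 arrays of a group biological replicates, but nothing ties them to different animals or preparations. HO1-/- and HO1+/+ cells come from different mice, so an HO1 genotype effect cannot be told apart from a difference between animals or preparations. P-values rest on the spread between arrays within groups, pooled over the 4 groups, and that spread may be technical.

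Phase II enzymes attach a polar group to lipophilic drugs, hormones, bile acids and bilirubin so that they can leave the cell in bile or urine. UGTs use sugars activated with UDP, SULTs use the sulfate donor PAPS, and GSTs couple glutathione to electrophiles such as lipid peroxidation products. The families are strongly expressed in adult liver, and their levels are known to decline when hepatocytes are cultured. Heme oxygenases open the heme ring to biliverdin, which is reduced to bilirubin, itself a glucuronidation substrate.

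Signals are log2 values of probe sets normalised together by the authors. A level therefore compares 1 gene between groups and not different genes with each other, and the number of arrays limits precision. Array medians lay between 7.61 and 7.70, and arrays of 1 group correlated at 0.997 to 0.999, against 0.975 to 0.989 between groups. The targeted Hmox2, which encodes HO2, read 8.32 and 8.38 in HO2 knockdown and 9.26 and 9.32 in combined cells, against 11.59 and 11.60 in HO1 knockout and 11.41 and 11.57 in control cells. Hmox2 signal was thus low with the HO2 hairpin in both genotypes, and less so in HO1-/- than in HO1+/+ cells. Hmox1, which encodes HO1, read 11.98 and 11.97 in HO1 knockout and 12.40 and 12.47 in combined cells, against 11.54 and 11.57 in HO2 knockdown and 11.46 and 11.40 in control cells. It was not low in the arrays labelled HO1-/-. The sources used here do not say which exons the allele lacks, so this probe set does not check the genotype labels.

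Markers of cell types moved with both perturbations. Of all genes, 33.2% were called in HO2 knockdown and 12.8% in HO1 knockout, each against control. Of 20 hepatocyte markers measured, 18 were higher and 1 lower in HO2 knockdown than in control cells, with a summed linear signal of 118705 to 122514 in HO2 knockdown, 126342 to 129445 in combined, 79974 to 80631 in HO1 knockout and 65190 to 66327 in control arrays. In HO1 knockout against control cells, 10 of the 20 hepatocyte markers were higher and 1 lower. In control and HO1 knockout cells, 3 of the 20 (Fabp1, Cyp2e1 and Cyp3a11) had group means under the background level of 7.08. Of 20 macrophage markers, 15 were higher and 1 lower in HO1 knockout than in control cells, and 0 higher and 4 lower in HO2 knockdown cells. Their summed signal was 41587 to 42189 in HO1 knockout and 38891 to 41198 in combined arrays, against 7108 to 7439 in HO2 knockdown and 8169 to 8461 in control arrays. The macrophage markers Cd163 and Timd4 stayed under the background level in every group. Group means under that level were found for 3 of the 20 in HO1 knockout, 5 in combined, 9 in HO2 knockdown and 8 in control cells. The median fold changes of this list therefore rest partly on signals under background. Against control, 8 of 16 sinusoidal endothelial markers were higher and 1 lower in HO2 knockdown, and 5 higher and 2 lower in HO1 knockout. Of 19 stellate cell and fibroblast markers, 5 were higher and 3 lower in HO2 knockdown, and 1 higher and 9 lower in HO1 knockout. Of 9 cholangiocyte markers, 2 were higher and 1 lower in HO2 knockdown, and 1 higher and 1 lower in HO1 knockout. The part of these cell type differences in the members' results was not tested, and in bulk RNA fewer cells of a type cannot be told apart from less RNA per cell.

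The background level was set at 7.08, the 95th percentile of the mean signals of 1027 olfactory receptor genes. Of the 45 members, 31 had a group mean above it: 7 UGT, 6 SULT and 18 GST genes. The other 14, called dim here, were 3 UGT, 10 SULT and 1 GST genes. The dim SULTs include the hydroxysteroid sulfotransferases Sult2a3, Sult2a6 and Sult2a8 and the estrogen sulfotransferase Sult1e1, whose group means stayed between 4.25 and 5.01 and between 4.53 and 4.86. Member signals spanned 3.90 to 13.42 over all arrays. The brightest probe set among the members was that of the Pi class Gstp1, which read 13.34 and 13.25 in HO1 knockout, 13.42 and 13.42 in HO2 knockdown and 13.21 and 13.22 in combined cells, against 13.27 and 13.24 in control cells. Among the UGTs it was that of Ugt2b34, with 12.18 and 12.12 in HO1 knockout, 12.67 and 12.66 in HO2 knockdown and 12.45 and 12.44 in combined cells, against 12.27 and 12.24 in control cells. Both genes were far above background in all groups. Of the 31, 4 had at least 1 group with both arrays under the background level: Ugt3a2, Ugt2b1, Gsto2 and Sult5a1. A signal under that level is only a bound, so for these genes a fold against such a group is given as at least the ratio to the background level. The fitted log2 values are given beside it.

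Many members sit beside each other in the genome. In RefSeq's gene order, Ugt2b34, Ugt2b1, Ugt2b35, Ugt2b36, Ugt2b5, Ugt2b37, Ugt2a3 and Ugt2b38 follow one another among the members on chromosome 5, ahead of Sult1b1, Sult1d1 and Sult1e1, and the Mu class GSTs follow on chromosome 3 as Gstm5, Gstm7, Gstm6, Gstm3, Gstm2, Gstm1 and Gstm4. These neighbours are close paralogs, and how much signal a probe set takes from a related transcript was not tested. The promoters of 4 such members whose responses differed are shown, each being the 250 bases before the transcription start (RefSeq, GRCm38.p6, first window listed), with motif matches in capitals. They are Sult1d1 (chr5:87569007-87569256, minus strand), Ugt2b1 (chr5:86926504-86926753, minus strand), Gstm1 (chr3:108017974-108018223, minus strand) and Gstm6 (chr3:107953467-107953716, minus strand).
Sult1d1: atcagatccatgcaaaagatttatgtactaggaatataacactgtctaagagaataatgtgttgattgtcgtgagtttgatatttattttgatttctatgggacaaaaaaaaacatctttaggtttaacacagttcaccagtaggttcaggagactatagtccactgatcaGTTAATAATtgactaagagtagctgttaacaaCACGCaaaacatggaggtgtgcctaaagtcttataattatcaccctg
Ugt2b1: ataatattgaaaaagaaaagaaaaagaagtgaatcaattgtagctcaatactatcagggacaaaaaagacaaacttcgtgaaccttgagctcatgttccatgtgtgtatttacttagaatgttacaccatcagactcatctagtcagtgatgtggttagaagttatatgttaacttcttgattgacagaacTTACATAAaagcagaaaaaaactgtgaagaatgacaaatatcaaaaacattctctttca
Gstm1: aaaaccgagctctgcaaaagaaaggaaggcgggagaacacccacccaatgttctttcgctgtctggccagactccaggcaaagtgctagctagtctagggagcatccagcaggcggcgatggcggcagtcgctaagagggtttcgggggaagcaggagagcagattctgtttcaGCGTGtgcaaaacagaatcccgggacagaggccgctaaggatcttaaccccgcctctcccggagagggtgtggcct
Gstm6: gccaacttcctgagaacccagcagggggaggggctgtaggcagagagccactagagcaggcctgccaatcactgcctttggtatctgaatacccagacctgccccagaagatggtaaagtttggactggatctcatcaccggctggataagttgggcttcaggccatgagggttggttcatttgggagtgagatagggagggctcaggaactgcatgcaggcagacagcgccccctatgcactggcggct
Sult1d1 and Ugt2b1 rose with HO2 shRNA in both genotypes, Gstm1 rose mainly in HO1+/+ cells, and Gstm6 changed in opposite directions. The 6 motifs, chosen with the expression results known, were searched on both strands: HNF1 (GTTAATNAT), HNF4 (CAAAGTCCA), the antioxidant response element (TGACNNNGC), the xenobiotic response element core (GCGTG), the E-box (CACGTG) and the D-box (TTATGTAA). The capitals mark an HNF1 and a xenobiotic response element match in Sult1d1, a D-box match in Ugt2b1 and a xenobiotic response element match in Gstm1, while Gstm6 had none in this window. Of the 41 members with a promoter in the table, 3 held the HNF1 letters (Sult1d1, Sult2a3 and Sult2a6), against 0.781% of all 27025 promoters. The antioxidant response element letters were in Gsta3 and Gstm5, against 10.1% of all promoters. The xenobiotic response element core was in 5 members (Gstm1, Gstm5, Gstp1, Gstp3 and Sult1d1), against 28.2%, and in Gstm5 one of its matches overlapped the antioxidant response element match. The D-box letters were in Ugt2b1 alone among the members, against 0.862% of all promoters, and no member held the HNF4 or E-box letters, against 0.381% and 6.05%. These matches describe the letters only, not binding.

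**Figure D1:**
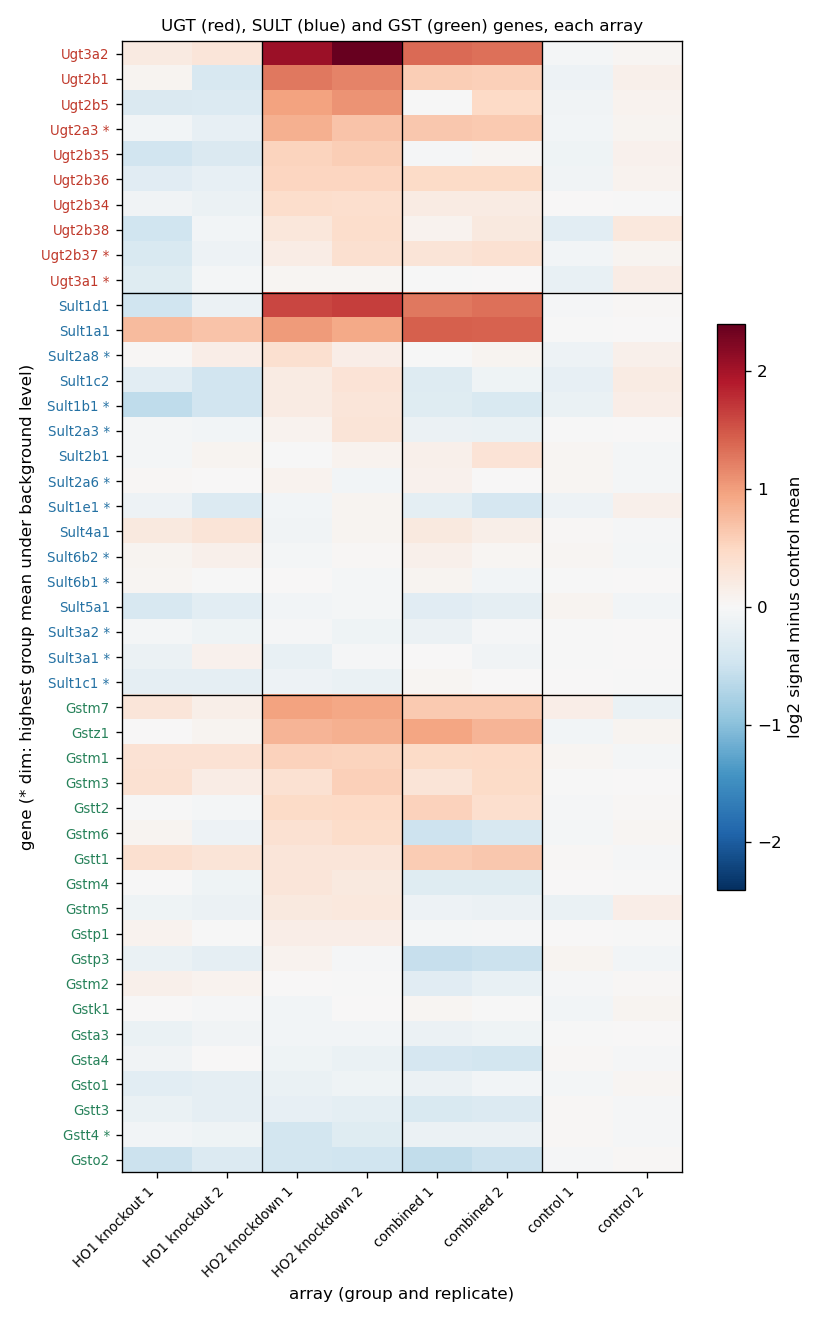
Heat map of log2 signal minus the control mean for the 45 members (rows, by family, dim genes starred) on the 8 arrays (columns, by group), with the colour bar in log2 units. The rows of Ugt3a2 and Sult1d1 are darkest red in HO2 knockdown arrays and that of Sult1a1 in combined arrays, and most dim SULT rows stay pale.

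HO2 knockdown in HO1+/+ cells raised 20 of the 45 members and lowered 4 relative to control. Across all genes, 33.2% were called in this comparison, 16.5% higher and 16.7% lower, against 53.3% of the members. The median log2 fold change was 0.24 over the members and -0.07 over all genes. By family, 7 UGTs rose and 0 fell, 3 SULTs rose and 0 fell, and 10 GSTs rose and 4 fell. Calls are limma's adjusted p under 0.05, with the Benjamini-Hochberg adjustment over all genes, and fold changes carry a standard error (SE) from the fit to n = 2 arrays a group. Hepatocyte markers were also higher in the HO2 knockdown arrays, with a median log2 fold change of 1.25 over the 20 markers.

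Ugt3a2, whose human counterpart uses UDP-glucose and UDP-xylose in place of UDP-glucuronic acid, passed the background level only through the HO2 knockdown group. It read 7.73 and 8.06 in HO2 knockdown, against 5.63 and 5.73 in control cells. Both control arrays were under the background level and both HO2 knockdown arrays above it, so the signal was at least 1.76-fold higher in HO2 knockdown cells (fitted log2 fold change 2.22 ± 0.11, SE, group means 7.90 and 5.68, adjusted p = 5.48e-10). Ugt2b1, of the steroid- and drug-conjugating 2B subfamily, read 7.89 and 7.81 in HO2 knockdown, against 6.49 and 6.75 in control cells. By group mean, Ugt2b1 passed the background level only through the groups with HO2 shRNA. Both control arrays were under that level, so the signal was at least 1.7-fold higher in HO2 knockdown cells (fitted log2 fold change 1.23 ± 0.13, group means 7.85 and 6.62, adjusted p = 2.94e-06). Ugt2b5 read 9.91 and 10.04 in HO2 knockdown, against 8.87 and 9.03 in control cells, a log2 fold change of 1.02 ± 0.12 (adjusted p = 4.53e-06). Other 2B genes rose too, Ugt2b35 by 0.57, Ugt2b36 by 0.52 and Ugt2b34 by 0.41 on the log2 scale, each called. Dim Ugt2a3 rose by 0.77. Ugt2b38 and dim Ugt2b37 had log2 fold changes of 0.34 and 0.28 that were not called (adjusted p = 0.0763 and 0.0682).

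Among the SULTs, the catecholamine sulfotransferase Sult1d1 had the largest response. It read 12.71 and 12.77 in HO2 knockdown, against 11.09 and 11.14 in control cells. The arrays of each group lay within 0.1 of each other and far from the other group, and the log2 fold change of 1.63 ± 0.08 is a 3.09-fold rise (adjusted p = 2.01e-10). This distance adds no separate support, as the gene was chosen by its call. The phenol sulfotransferase Sult1a1 read 10.08 and 9.98 in HO2 knockdown, against 9.04 and 9.08 in control cells, a log2 fold change of 0.96 ± 0.06 (adjusted p = 1.25e-08). The third SULT called was dim Sult2a8, at 0.28 (adjusted p = 0.0431), and its call ended when any 1 of 4 arrays was left out (control replicate 1, HO2 knockdown replicate 1 or either combined replicate; 0.15 to 0.28, adjusted p up to 0.364). The other 13 SULTs were not called, and the family median was 0.0056.

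GST changes ran in both directions. Mu class Gstm7 read 10.24 and 10.20 in HO2 knockdown, against 9.42 and 9.11 in control cells, with a log2 fold change of 0.95 ± 0.09 (adjusted p = 5.74e-07). Gstz1, the maleylacetoacetate isomerase of tyrosine breakdown, read 10.25 and 10.29 in HO2 knockdown, against 9.37 and 9.50 in control cells, with a log2 fold change of 0.84 ± 0.07 (adjusted p = 1.38e-07). These were the only GST rises above 0.6 in this comparison. Gstm1 rose by 0.54, Gstm3 and the Theta class Gstt2 by 0.47 each, Gstm6 by 0.40, Gstt1 by 0.28, Gstm4 by 0.27, Gstm5 by 0.25 and Gstp1 by 0.16. The second Gstm3 probe set read 8.22 and 8.17 in HO2 knockdown, against 7.79 and 7.77 in control cells, higher on every HO2 knockdown array as the brighter one was. The Gstm5 rise was no longer called without control replicate 1, HO2 knockdown replicate 1 or HO2 knockdown replicate 2 (0.09 to 0.26, adjusted p 0.102 to 0.409).

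GSTs that fell were the Omega class Gsto2 and Gsto1, with thioltransferase and dehydroascorbate reductase activity, and the Theta class Gstt3 and dim Gstt4. By group mean, Gsto2 passed the background level only through the control group, the reference of its falls. It read 6.97 and 6.93 in HO2 knockdown, against 7.38 and 7.44 in control cells, a fitted log2 fold change of -0.46 ± 0.10 (group means 6.95 and 7.41, adjusted p = 0.00208). Both HO2 knockdown arrays were under the background level and both control arrays above it, so the signal was at least 1.26-fold lower in HO2 knockdown cells. Gsto1 fell by 0.14 (adjusted p = 0.0359), Gstt3 by 0.21 (adjusted p = 0.0164) and Gstt4 by 0.36 (adjusted p = 0.00943). Each array was left out in turn, and where that leaves a group of 1 array, its spread is assumed to be like that of the other groups. None of these last 3 calls held in all of these leave-one-out fits: Gsto1 was lost without control replicate 2 or either HO2 knockdown replicate (-0.17 to -0.09, adjusted p 0.0521 to 0.22), Gstt3 without control replicate 1 or either HO2 knockdown replicate (-0.23 to -0.18, adjusted p 0.0515 to 0.0988), and Gstt4 without HO2 knockdown replicate 1 (-0.28, adjusted p = 0.125).

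**Figure D2:**
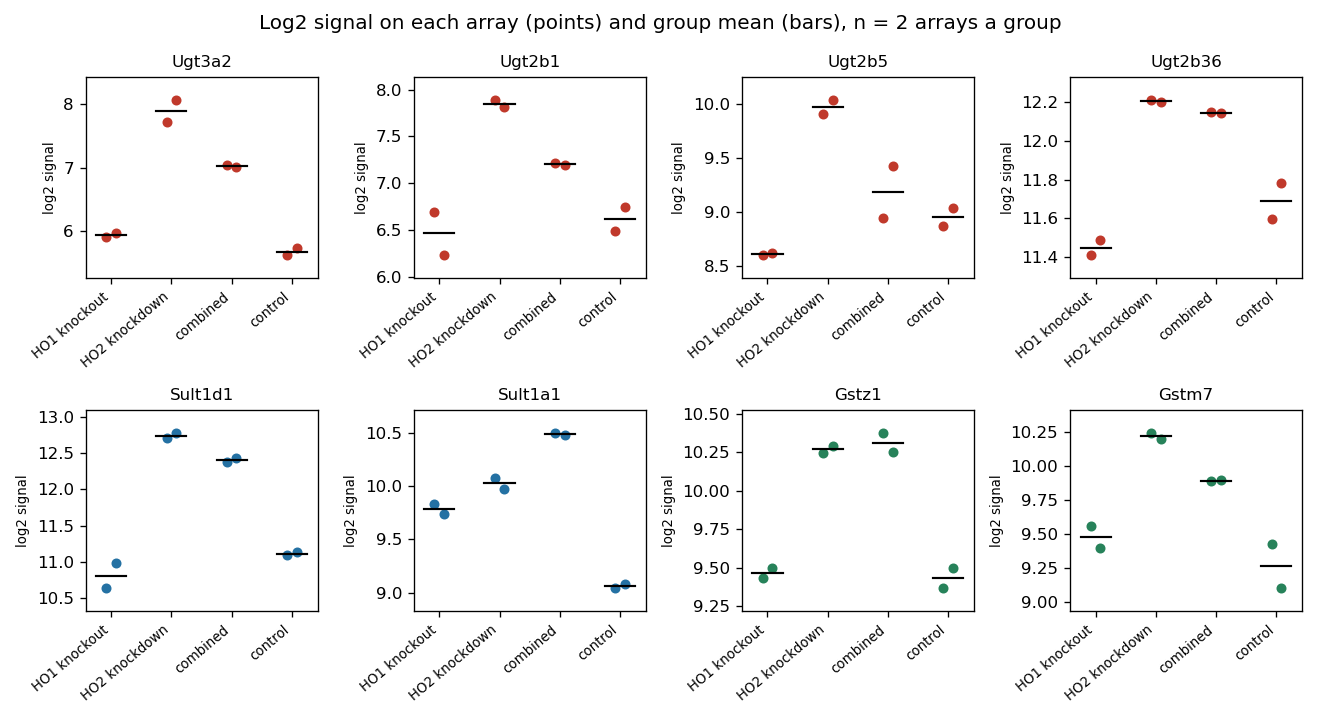
Log2 signal on each array (points) with group means (bars, n = 2 arrays a group) for 8 members, with groups on the x axis and a separate y scale for each gene. Ugt3a2, Ugt2b1, Ugt2b5, Sult1d1 and Gstm7 are highest in HO2 knockdown arrays, Sult1a1 is highest in combined arrays, and Gstz1 is high in both groups with HO2 shRNA.

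The same hairpin was compared in HO1-/- cells, combined against HO1 knockout. Here 17 members rose and 5 fell, where 23% of all genes were called, 10.2% higher and 12.8% lower. The median log2 fold change was 0.11 over the members and 0.01 over all genes. By family, 9 UGTs rose and 0 fell, 2 SULTs rose and 0 fell, and 6 GSTs rose and 5 fell. All 8 Ugt2 genes were called higher, with fitted log2 fold changes of 0.30 to 0.77, Ugt2b37 (0.58) and Ugt2b38 (0.43) among them. The 0.77 is that of dim Ugt2a3, and Ugt2b37 is dim too, so the values of both cannot be read as folds. The Ugt2b38 call was lost without HO1 knockout replicate 1 (0.23, adjusted p = 0.434) and without either combined replicate (0.51 without replicate 1 and 0.36 without replicate 2, adjusted p = 0.0758 and 0.236).

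Sult1d1 again stood at the top, with 12.37 and 12.43 in combined, against 10.64 and 10.98 in HO1 knockout cells. The log2 fold change of 1.59 ± 0.08 was a 3.01-fold rise (adjusted p = 3.59e-10). Ugt3a2 read 7.04 and 7.01 in combined, against 5.90 and 5.97 in HO1 knockout cells, and was called (fitted log2 fold change 1.09 ± 0.11, adjusted p = 2.45e-06). All 4 of these arrays lay under the background level, so no fold is given. Gstz1 read 10.37 and 10.25 in combined, against 9.43 and 9.50 in HO1 knockout cells, a log2 fold change of 0.85 ± 0.07 (adjusted p = 1.6e-07). Ugt2b36 read 12.15 and 12.15 in combined, against 11.41 and 11.49 in HO1 knockout cells, a log2 fold change of 0.70 ± 0.06 (adjusted p = 1.23e-07), and Sult1a1 rose by 0.70 as well (adjusted p = 6.58e-07). In these genes all combined arrays were above all HO1 knockout arrays, which adds no separate support, as they were chosen by their calls. Ugt2b1 had a fitted value of 0.74 (group means 7.21 and 6.46, adjusted p = 0.000588), which is at least 1.09-fold, since both HO1 knockout arrays were under the background level. Rises were also called for Ugt2b5 (0.58), Gstt2 (0.51), Gstm7 (0.41), Gstt1 (0.29), Gsto1 (0.14) and Gstm1 (0.13). The Gsto1 call ended when any 1 of 6 arrays was left out (the HO1 knockout, HO2 knockdown and combined arrays; 0.10 to 0.18, adjusted p 0.0534 to 0.34), and the Gstm1 call when any 1 of the 4 HO1-/- arrays was (0.12 to 0.13, adjusted p 0.105 to 0.186).

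The 5 that fell in HO1-/- cells were all GSTs. Gsta4, which conjugates the lipid aldehyde 4-hydroxynonenal, read 11.08 and 11.06 in combined, against 11.41 and 11.49 in HO1 knockout cells, a log2 fold change of -0.38 ± 0.05 (adjusted p = 2.87e-05). Pi class Gstp3 read 10.94 and 10.98 in combined, against 11.34 and 11.28 in HO1 knockout cells, a log2 fold change of -0.35 ± 0.06 (adjusted p = 0.00026). The other 3 were the Mu class Gstm6 (-0.41), Gstm2 (-0.33) and Gstm4 (-0.24), of which the Gstm4 call was lost without HO1 knockout replicate 1 (-0.20, adjusted p = 0.0669).

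The HO2 shRNA effect in the 2 genotypes was set side by side from separate arrays. In both, 14 of the 45 members rose: Ugt2a3, Ugt2b1, Ugt2b5, Ugt2b34, Ugt2b35, Ugt2b36, Ugt3a2, Sult1a1, Sult1d1, Gstm1, Gstm7, Gstt1, Gstt2 and Gstz1. Across all genes 7.35% rose in both. Of the 14, Ugt2a3 was dim, and Ugt3a2 was under the background level in 3 of the 4 groups. Ugt2b1 was under it in HO1 knockout and control cells, the references of its rises. The Gstm1 call in HO1-/- cells was lost without any 1 of the 4 HO1-/- arrays. No member fell in both. Opposite calls were made for 3 members, against 0.848% of all genes. Gstm4 and Gstm6 rose in HO1+/+ and fell in HO1-/- cells, and Gsto1 did the reverse with small, unstable calls. The Gstm4 fall in HO1-/- cells also lost its call without HO1 knockout replicate 1 (-0.20). Pearson's r between the log2 fold changes was 0.81 across the 45 members and 0.67 across all genes, as a description only, since genes are not independent.

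**Figure D3:**
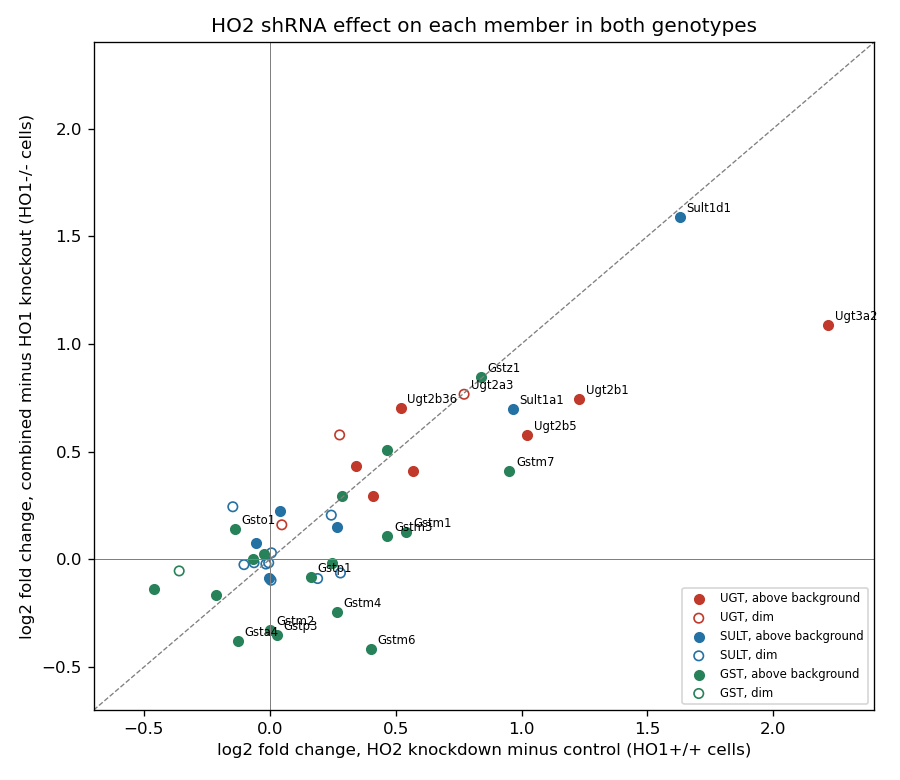
Log2 fold change with HO2 shRNA in HO1-/- cells (y axis, combined minus HO1 knockout) against that in HO1+/+ cells (x axis, HO2 knockdown minus control), 1 point a member, coloured by family, open where dim, with the dashed line marking equal effects. Sult1d1 and Gstz1 lie close to the line, Ugt3a2, under background in all groups but HO2 knockdown, lies far below it, and Gstm6 and Gstm4 lie in the quadrant of opposite signs.

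Whether HO2 shRNA acted differently in the 2 genotypes was tested as the interaction, the log2 fold change in HO1-/- cells minus that in HO1+/+ cells. It was called for 12 members, 2 higher and 10 lower, where 12.2% of all genes were called, 4.67% higher and 7.57% lower. With arrays centred on their medians the split was 0 higher and 10 lower. The median was -0.04 over the members and 0.05 over all genes. Of the 12, 10 were GSTs (1 higher, 9 lower), 1 was a UGT and 1 a dim SULT. The UGT was Ugt3a2, with a fitted interaction of -1.13 ± 0.16 (adjusted p = 0.000294). Its signal was under the background level in 3 of the 4 groups, so the size of this value cannot be read as a fold. Interactions close to 0 were measured for Gstz1 (0.01, 95% interval -0.20 to 0.22), Gstt1 (0.01, -0.14 to 0.16) and Sult1d1 (-0.04, -0.27 to 0.19). Hmox2 itself was less reduced in HO1-/- cells, with a log2 fold change of -2.30 in combined against HO1 knockout and -3.14 in HO2 knockdown against control cells. The hepatocyte markers also had a negative median interaction, -0.27, with 8 of 20 called lower and 0 higher, and the part of either in the members' interactions was not tested.

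The Mu class GSTs, the largest GST class here with 7 genes, made up 6 of the 10 negative calls. All 7 had a negative interaction, with a median of -0.42. Gstm6 read 9.28 and 9.36 in HO2 knockdown, against 8.88 and 8.96 in control cells. In HO1-/- cells it read 8.42 and 8.54 in combined, against 8.99 and 8.80 in HO1 knockout cells. Both HO2 knockdown arrays were thus the highest of the 8 and both combined arrays the lowest, and the interaction was -0.82 ± 0.12 (adjusted p = 0.000372). Gstm4 showed the same order, with 10.81 and 10.77 in HO2 knockdown against 10.54 and 10.51 in control, and 10.23 and 10.23 in combined against 10.52 and 10.43 in HO1 knockout cells (interaction -0.51 ± 0.08, adjusted p = 0.000638). The order of the arrays adds no separate support, as both genes were chosen by their interaction calls. Gstm1 read 13.06 and 13.04 in HO2 knockdown against 12.56 and 12.45 in control, and 12.97 and 12.98 in combined against 12.85 and 12.85 in HO1 knockout cells. It rose in both genotypes, less in HO1-/- cells (interaction -0.42 ± 0.06, adjusted p = 0.000252).

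Of the remaining Mu genes, Gstm7 had an interaction of -0.54, Gstm3 of -0.36 and Gstm2 of -0.33, all called, and Gstm5 of -0.27, not called (adjusted p = 0.15). Gstm2 differed in form: it read 11.59 and 11.58 in HO2 knockdown against 11.56 and 11.61 in control cells, where the groups overlapped (log2 fold change -0.00, 95% interval -0.11 to 0.10). In combined cells Gstm2 read 11.31 and 11.41, against 11.70 and 11.68 in HO1 knockout cells, which did not overlap. The Gstm7 interaction call was lost without HO1 knockout replicate 1 or HO2 knockdown replicate 1 (-0.46 and -0.52, adjusted p = 0.0626 and 0.0552). The Gstm3 call was lost without control replicate 1, HO1 knockout replicate 1, HO2 knockdown replicate 2 or combined replicate 1 (-0.35 to -0.25, adjusted p 0.0846 to 0.188).

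**Figure D4:**
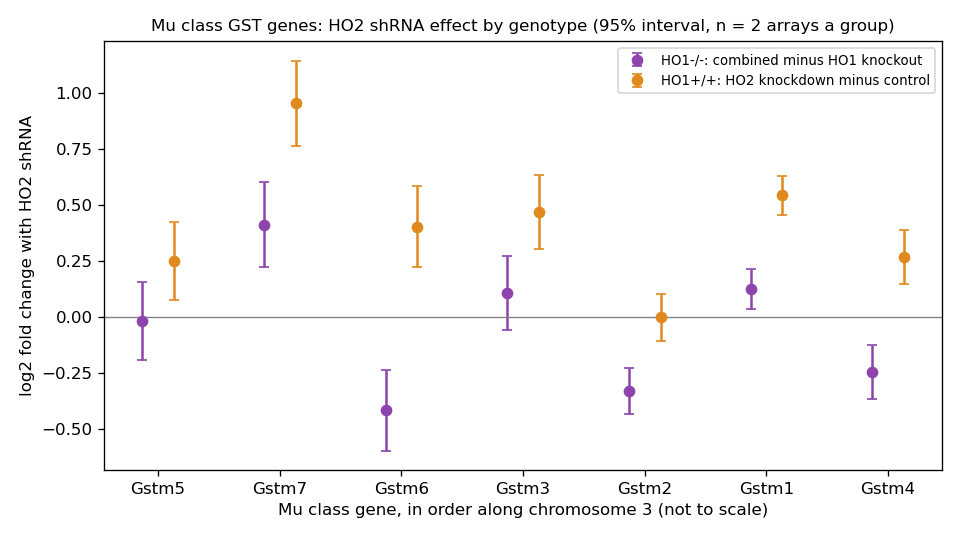
Log2 fold change with HO2 shRNA (y axis) for the 7 Mu class genes in their order along chromosome 3 (x axis, not to scale), in HO1-/- cells (purple) and HO1+/+ cells (orange), with 95% intervals from the fit to n = 2 arrays a group. The purple point lies below the orange point for all 7 genes.

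Other GSTs with a called interaction were both Pi class genes (Gstp3 -0.38 and Gstp1 -0.24), the Alpha class Gsta4 (-0.25) and the Omega class Gsto1 (0.28). The Gsta4 call was lost without HO1 knockout replicate 2, either HO2 knockdown replicate or either combined replicate (-0.28 to -0.21, adjusted p 0.0506 to 0.119), and the Gsto1 call without HO1 knockout replicate 1, HO2 knockdown replicate 1 or combined replicate 2 (0.24 to 0.26, adjusted p 0.0512 to 0.0814). Dim Sult1c1 (0.39, adjusted p = 0.0469) lost its call without any 1 of 7 arrays, all but control replicate 2 (0.37 to 0.41, adjusted p 0.069 to 0.147). The other 7 interactions held in each of the 8 leave-one-out fits: Ugt3a2, Gstm1, Gstm2, Gstm4, Gstm6, Gstp1 and Gstp3.

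The genotypes were compared with the scrambled hairpin, HO1 knockout against control. Here 4 members rose and 7 fell, 24.4% of the 45, where 12.8% of all genes were called, 5.62% higher and 7.2% lower, and the median was -0.07 over the members and -0.04 over all genes. By family, 0 UGTs rose and 2 fell, 1 SULT rose and 2 fell, and 3 GSTs rose and 3 fell. Sult1a1 had the largest change, with 9.83 and 9.74 in HO1 knockout, against 9.04 and 9.08 in control cells, a log2 fold change of 0.72 ± 0.06 (adjusted p = 6.43e-07). The other rises were those of Gstm1 (0.34, adjusted p = 1.93e-05), the Theta class Gstt1 (0.34, adjusted p = 0.000144) and Gstm3 (0.27, adjusted p = 0.0265). All 4 genes were higher on both HO1 knockout arrays than on either control array, which adds no separate support, as they were chosen by their calls. Macrophage markers were higher in these arrays too, with a fitted median log2 fold change of 2.32 over 20 markers, 8 of them under background in control cells.

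Ugt2b35 fell in HO1 knockout cells, with 10.66 and 10.77, against 11.02 and 11.21 in control cells (log2 fold change -0.40 ± 0.06, adjusted p = 0.000429). Gsto1 fell as well, with 11.94 and 11.98 in HO1 knockout, against 12.15 and 12.25 in control cells (-0.24 ± 0.05, adjusted p = 0.00266). Sult1d1 read 10.64 and 10.98 in HO1 knockout, against 11.09 and 11.14 in control cells (-0.30 ± 0.08, adjusted p = 0.0143). Its HO1 knockout arrays lay far apart, and both were below the control arrays. Gsto2 read 6.90 and 7.08 in HO1 knockout cells, at or under the background level, against 7.38 and 7.44 in control cells (fitted log2 fold change -0.42). The control group was the only one whose mean put Gsto2 above that level. Dim Sult1b1, a thyroid hormone sulfotransferase, fell by 0.54, Ugt2b36 by 0.24 and Gstp3 by 0.19.

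Without HO1 knockout replicate 1, 5 of the 11 members were called (Ugt2b35, Sult1a1, Gstm1, Gsto1 and Gstt1), and these 5 held in every leave-one-out fit. Without HO1 knockout replicate 1 the log2 fold changes of the others were -0.13 for Sult1d1 (adjusted p = 0.188), -0.33 for Gsto2 (0.136), -0.46 for Sult1b1 (0.0627), -0.20 for Ugt2b36 (0.0878), -0.22 for Gstp3 (0.0838) and 0.18 for Gstm3 (0.289). Further single arrays ended the calls of Ugt2b36 and Sult1d1 (control replicate 2; -0.15 and -0.28, adjusted p = 0.115 and 0.0689), of Gstm3 (either control replicate; 0.26 and 0.28, adjusted p = 0.0733 and 0.0685) and of Gstp3 (control replicate 1, HO1 knockout replicate 2 or either combined replicate; -0.19 to -0.11, adjusted p 0.063 to 0.278).

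The HO1 genotype was also compared with the HO2 hairpin in both groups, combined against HO2 knockdown. Here 2 members rose and 18 fell, where 34% of all genes were called, 13% higher and 21% lower. The median was -0.13 over the members and 0.02 over all genes. By family, 0 UGTs rose and 5 fell, 1 SULT rose and 5 fell, and 1 GST rose and 8 fell. The 2 that rose were Sult1a1, with 10.49 and 10.47 in combined against 10.08 and 9.98 in HO2 knockdown cells (log2 fold change 0.46 ± 0.06, adjusted p = 6.79e-05), and Gstt1, with 11.65 and 11.68 in combined against 11.32 and 11.32 in HO2 knockdown cells (0.35 ± 0.05, adjusted p = 6.92e-05). Both also rose in HO1 knockout against control cells. Macrophage markers were again higher, 15 of 20 with 0 lower and a fitted median of 2.36, with 9 of the 20 under background in HO2 knockdown cells.

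Gstm6 fell by 0.84 ± 0.08 (adjusted p = 1.99e-06). Ugt3a2 had a fitted value of -0.87 ± 0.11 (group means 7.02 and 7.90, adjusted p = 3.07e-05), and as both combined arrays were under the background level its signal was at least 1.76-fold lower in combined cells. Ugt2b5 read 8.95 and 9.42 in combined, against 9.91 and 10.04 in HO2 knockdown cells, a log2 fold change of -0.79 ± 0.12 (adjusted p = 0.000101). Its combined arrays lay far apart and did not reach the HO2 knockdown arrays. Ugt2b1 fell by 0.64 (adjusted p = 0.00175), Gstp3 by 0.57 (adjusted p = 2.48e-06), Ugt2b35 and Gstm4 by 0.56 each (adjusted p = 9.78e-06 and 2.17e-06), Gstm5 by 0.38 and Sult1d1 by 0.34 (adjusted p = 0.00226 and 0.00295). Falls of 0.33 or less were called for Gstm7, Gsta4, Gstm2, Ugt2b34 and Gstp1. Sult1c2, at -0.47 (adjusted p = 0.0101), lost its call without HO2 knockdown replicate 2 or combined replicate 1 (-0.41 and -0.37, adjusted p = 0.0864 and 0.123). Gstm7, at -0.33 (adjusted p = 0.0108), lost its call without HO2 knockdown replicate 1 or either combined replicate (-0.33 to -0.31, adjusted p 0.061 to 0.083). Of the dim Sult1b1, Sult1e1 and Sult2a3, which fell too, only Sult1b1 held in every leave-one-out fit, while Sult1e1 and Sult2a3 were each lost without HO2 knockdown replicate 2 or combined replicate 2 (-0.26 and -0.25, adjusted p = 0.138 and 0.177, for Sult1e1; -0.23 and -0.32, adjusted p = 0.0986 and 0.0524, for Sult2a3).

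Over both HO1 comparisons, Ugt2b35, Sult1b1, Sult1d1 and Gstp3 fell with either hairpin, against 4.15% of all genes, and Sult1a1 and Gstt1 rose with either, against 3.5%. Sult1b1 was dim, and Sult1b1, Sult1d1 and Gstp3 lost their calls with the scrambled hairpin when single arrays were left out. A further 14 members fell with the HO2 hairpin and were not called with the scrambled one, against 16.3% of all genes. Pearson's r between the 2 HO1 effects was 0.39 across the 45 members and 0.72 across all genes. The HO1 effects of Gstz1 were small with both hairpins, 0.04 with HO2 shRNA (95% interval -0.11 to 0.19) and 0.03 with scrambled shRNA (-0.11 to 0.18).

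**Figure D5:**
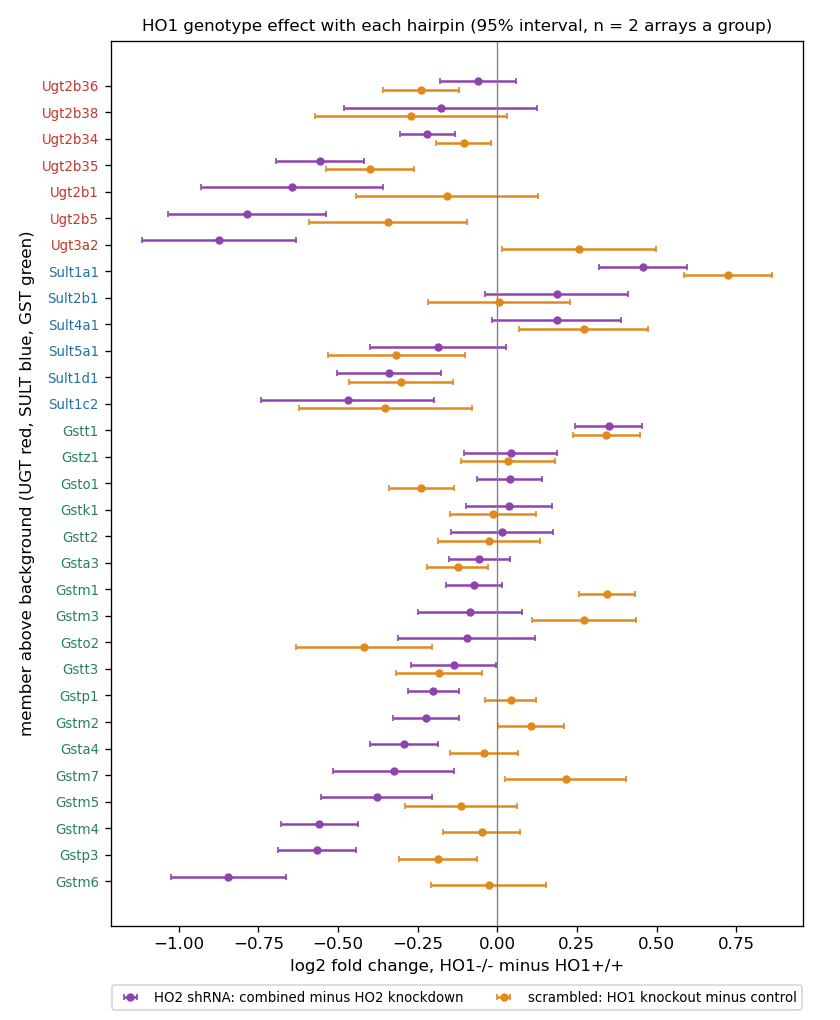
Log2 fold change of HO1-/- against HO1+/+ cells (x axis) for the 31 members above background (y axis, by family), with HO2 shRNA (purple) and with scrambled shRNA (orange), with 95% intervals from the fit to n = 2 arrays a group. Sult1a1 and Gstt1 lie right of 0 with both hairpins, while Gstm6, Ugt2b5, Ugt2b1 and Ugt3a2 (its combined arrays under background) lie furthest left with HO2 shRNA.

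Both perturbations together, combined against control, left 14 members higher and 10 lower, where 29.9% of all genes were called, 11.6% higher and 18.3% lower. The median was 0.01 over the members and -0.02 over all genes. By family, 6 UGTs rose and 0 fell, 2 SULTs rose and 2 fell, and 6 GSTs rose and 8 fell. Sult1a1, higher with either perturbation alone, rose by 1.42 ± 0.06 (2.68-fold, adjusted p = 6.65e-11). Sult1d1 rose by 1.29 ± 0.08 (2.44-fold, adjusted p = 1.87e-09). Ugt3a2 was called with a fitted value of 1.35 ± 0.11 (adjusted p = 1.33e-07), but all 4 arrays lay under the background level and no fold is given. Gstz1 rose by 0.88 (adjusted p = 5.45e-08), and Gstt1 and Gstm7 by 0.63 each on the log2 scale (adjusted p = 5.26e-08 and 4.43e-05). Ugt2b1 had a fitted value of 0.59 (group means 7.21 and 6.62, adjusted p = 0.00305), which is at least 1.09-fold, since both control arrays were under the background level. Ugt2b5, at 0.24, and Ugt2b35, at 0.01, were not called here (adjusted p = 0.159 and 0.942), although both rose in HO2 knockdown against control cells.

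Gsto2, above the background level only by its control mean, read 6.82 and 6.89 in combined cells, both under that level. In control cells it read 7.38 and 7.44. It was at least 1.26-fold lower in combined cells (fitted log2 fold change -0.56 ± 0.10, group means 6.85 and 7.41, adjusted p = 0.000412). Gstp3 fell by 0.54 (adjusted p = 2.14e-06), Gstm6 by 0.44 (adjusted p = 0.000691), Gsta4 by 0.42 (adjusted p = 6.52e-06), Gstt3 by 0.35 (adjusted p = 0.00041), Gstm4 by 0.29 (adjusted p = 0.000738) and Gstm2 by 0.22 (adjusted p = 0.00209). All 7 are GSTs, and each held in every leave-one-out fit. The Alpha class Gsta3 was called at -0.12 (adjusted p = 0.0492), which was lost without any 1 of the control, HO2 knockdown or combined arrays (-0.15 to -0.10, adjusted p 0.0617 to 0.271). Dim Sult1b1, Sult1e1 and Ugt2b37 also lost their calls when single arrays were left out: Sult1b1 without control replicate 2, either HO2 knockdown replicate or either combined replicate (-0.37 to -0.18, adjusted p 0.0534 to 0.283), Sult1e1 without control replicate 2 or combined replicate 2 (-0.21 and -0.24, adjusted p = 0.19 and 0.214), and Ugt2b37 without control replicate 1 or either combined replicate (0.27 to 0.37, adjusted p 0.093 to 0.195).

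In none of the 6 comparisons was a call made for 10 members: dim Ugt3a1, Sult2a6, Sult3a1, Sult3a2, Sult6b1 and Sult6b2, and above background Gstk1, Sult2b1, Sult4a1 and Sult5a1. The mitochondrial and peroxisomal Gstk1 read 10.21 and 10.18 in HO1 knockout, 10.14 and 10.22 in HO2 knockdown and 10.25 and 10.19 in combined cells, against 10.14 and 10.28 in control cells, and all groups overlapped with control. Its 95% interval for HO2 knockdown against control was -0.16 to 0.11. Sult5a1 read 6.92 and 7.06 in HO1 knockout, against 7.38 and 7.24 in control cells, and missed the threshold at -0.32 (adjusted p = 0.0506). Sult4a1, a brain-type sulfotransferase, read 7.88 and 7.94 in HO1 knockout, against 7.67 and 7.62 in control cells (0.27, adjusted p = 0.0771).

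Genes that supply the donors of these enzymes were followed from a list of 13, of which 12 were measured. With HO2 knockdown against control 6 rose and 0 fell (median 0.20), where 16.5% of all genes rose and 16.7% fell. In combined against HO2 knockdown cells 0 rose and 6 fell, where 13% of all genes rose and 21% fell. Slc35d1, which carries UDP-glucuronic acid into the endoplasmic reticulum, read 11.48 and 11.50 in HO2 knockdown, against 10.08 and 10.09 in control cells, a log2 fold change of 1.41 (adjusted p = 1.5e-11). Papss2, which makes PAPS, rose by 0.80, Ugp2, which makes UDP-glucose, by 0.72 and Ugdh, which makes UDP-glucuronic acid, by 0.29. The sulfate transporter Slc26a1 was at least 1.36-fold higher (fitted 0.66, group means 7.53 and 6.87, adjusted p = 0.000174), its control arrays being under the background level. In combined against HO1 knockout 7 rose and 1 fell, where 23% of all genes were called, and Slc35d1 rose by 0.52, less than in HO1+/+ cells (interaction -0.89, adjusted p = 2.1e-06). With HO1 knockout against control 0 rose and 3 fell, where 12.8% of all genes were called. These were Papss2 (-0.37), Ugdh (-0.28) and Gclc (-0.15), the catalytic subunit of the first step of glutathione synthesis.

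Other conjugation enzymes, 14 of 15 measured, had 7 members higher and 2 lower in HO2 knockdown than in control cells (median 0.28), where 33.2% of all genes were called. The amino acid conjugation gene Glyat (1.21) rose, as did thiopurine methyltransferase Tpmt (0.68). Acsm3 was at least 1.94-fold higher (fitted 1.47, group means 8.04 and 6.57, adjusted p = 5.38e-08) and Baat at least 2.2-fold higher (fitted 1.37, group means 8.22 and 6.85, adjusted p = 4.46e-07), as their control arrays were under the background level. Nnmt, nicotinamide N-methyltransferase, fell by 1.12 and the histamine methyltransferase Hnmt by 0.72. In HO1 knockout against control 1 of the 14 rose and 2 fell (12.8% of all genes called). Of 5 deconjugating enzymes measured, 0 rose and 2 fell with HO2 knockdown against control (33.2% of all genes called), and 1 rose and 0 fell with HO1 knockout (12.8%). That one was the lysosomal beta-glucuronidase Gusb, with 10.33 and 10.34 in HO1 knockout, against 9.73 and 9.64 in control cells (0.65, adjusted p = 1.5e-06). Macrophage markers were higher in the same arrays, and their part in the Gusb rise was not tested.

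Transcription factors known to control these families, 15 of 16 measured, had 10 members higher and 0 lower in HO2 knockdown than in control cells (median 0.38), where 16.5% of all genes were higher and 16.7% lower. In combined against HO2 knockdown cells 0 were higher and 8 lower (median -0.15), where 13% of all genes were higher and 21% lower. The xenobiotic receptor PXR gene Nr1i2 rose by 1.62 in HO2 knockdown against control cells and by 0.78 in combined against HO1 knockout cells (interaction -0.84, adjusted p = 0.0007). Hnf4a, also among the hepatocyte markers, rose by 0.75, Ppara by 0.72 and Rxra by 0.64 in HO2 knockdown against control cells. The hepatocyte markers had a median of 1.25 in the same comparison, and their part in these rises was not tested. In HO1 knockout against control cells 1 rose and 0 fell, where 12.8% of all genes were called. Receptor indicator genes, 13 measured, had 6 higher and 2 lower in HO2 knockdown than in control cells, where 33.2% of all genes were called. The CAR target Cyp2b10 rose by 3.38 and the AHR target Cyp1a2 by 2.00, while the AHR target Cyp1b1 fell by 1.78 and the NRF2 target Srxn1 by 0.60. The PXR target Cyp3a11 was at least 3.73-fold higher (fitted 3.48, group means 8.98 and 5.50, adjusted p = 3.92e-11) and the PPAR alpha target Cyp4a10 at least 3.99-fold higher (fitted 2.69, group means 9.08 and 6.38, adjusted p = 1.01e-10), as their control arrays were under the background level. In HO1 knockout against control cells 2 of the 13 were called higher and 4 lower, where 5.62% of all genes were higher and 7.2% lower. Those higher were Cyp1a2 (0.67) and Cyp3a11 (fitted 0.50, both groups under background), and those lower were the NRF2 targets Nqo1 (-0.46), Srxn1 (-0.34), Txnrd1 (-0.27) and Gclc (-0.15). Cyp3a11 is also a hepatocyte marker and Gclc is also in the list of donor genes, so the lists are not separate observations.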

How the data were processed

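Gene expression was measured on 8 Affymetrix arrays, 2 in each of 4 groups. The authors deposited log2 signals of 34760 probe sets, and the submitters' processing notes name RMA, the affy package and R 2.15.0. RMA is a joint background correction, quantile normalisation and probe summary, so arrays are not independent of each other. The chip definition file is not given in the sources used here. Probe sets were named from the platform annotation: 21640 had 1 symbol, 1321 several and 11799 none. The brightest probe set stood for each of 954 genes with several. All 45 members matched RefSeq by gene ID.

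A model with 1 mean for each group was fitted over all 8 arrays with limma 3.58.1 in R 4.3.3 (lmFit, eBayes with trend). It gave 5 differences between groups and the interaction, with Benjamini-Hochberg adjustment over 19937 genes and calls at an adjusted p under 0.05. The fit had 4 residual and 11.2 prior degrees of freedom. The SE of a member's difference ran between 0.038 and 0.14 (median 0.084). The scripts were tested on simulated data. The members and gene lists were chosen with earlier results of these data known. Named were, by family and among members above background, the 5 members with the largest called change in HO2 knockdown against control, the 3 with the largest in HO1 knockout against control, in combined against control and in the interaction, and the 3 brightest, with other members by count or value. In other gene lists, up to 5 members with the smallest p were to be named. Alternatives were no trend, array weights, median centring, quantile normalisation, no dim genes, the mean of probe sets, only the 2 groups compared, a replicate block, stricter thresholds and leaving out each array.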

Additional observations from a re-analysis of the deposited data

Results flagged for a closer look

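The effect of HO2 shRNA differed between HO1-/- and HO1+/+ cells, by the interaction test of limma (adjusted p under 0.05), for 12 members, where 12.2% of all genes were called. The values are the log2 fold change in HO1-/- cells minus that in HO1+/+ cells. Ugt3a2 had -1.13, with a log2 fold change of 1.09 in HO1-/- and 2.22 in HO1+/+ cells, but its signal was under the background level in every group except HO2 knockdown, so these sizes are not folds. In the Mu class, Gstm6 had -0.82, Gstm7 -0.54, Gstm4 -0.51, Gstm1 -0.42, Gstm3 -0.36 and Gstm2 -0.33. The Pi class genes Gstp3 and Gstp1 had -0.38 and -0.24, and Gsta4 had -0.25. The interaction was positive for Gsto1, 0.28, and for dim Sult1c1, 0.39. In Gstm6 and Gstm4 the direction itself differed, with -0.41 and -0.24 in HO1-/- and 0.40 and 0.27 in HO1+/+ cells. The Gstm4 fall in HO1-/- cells was not called without HO1 knockout replicate 1 (-0.20). The calls of Sult1c1, Gsta4, Gstm3, Gstm7 and Gsto1 were lost when single arrays were left out, and the other 7 held.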

How the results depend on the processing

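Many calls were lost when 1 array was left out, which leaves its group with 1 array whose spread is assumed to be like that of the other groups. Of the members called, 5 of 11 in HO1 knockout against control, 19 of 24 in HO2 knockdown against control, 20 of 24 in combined against control, 18 of 22 in combined against HO1 knockout, 16 of 20 in combined against HO2 knockdown and 7 of 12 in the interaction were called whichever array was left out. Counts then ran from 5 to 16, 20 to 27, 20 to 24, 18 to 23, 17 to 21 and 8 to 18 in the same order. The count of 5 was without HO1 knockout replicate 1 and the 18 interactions were without control replicate 2. Requiring at least a 2-fold change as well left 0 members in HO1 knockout against control, 4 in HO2 knockdown against control (fitted values of Ugt3a2, Sult1d1, Ugt2b1 and Ugt2b5), 3 in combined against control (Sult1a1, Ugt3a2 and Sult1d1), 2 in combined against HO1 knockout (Sult1d1 and Ugt3a2), 0 in combined against HO2 knockdown and 1 in the interaction (Ugt3a2). Without the mean-variance trend 7 members were called in HO1 knockout against control and 5 in the interaction, and at an adjusted p under 0.01 the counts were 7 and 7. Of 4725 member values under alternatives, 4399 stayed on the same side of the threshold, 265 lost a call, 61 gained one and 0 reversed a call. The direction of values called in neither fit was not compared. Rescaling the arrays moved the median of all genes by at most 0.056. Arrays with the same replicate number did not deviate together between groups (r of same-numbered deviations -0.26 to 0.12). As the numbering may differ between groups, this cannot show whether samples were paired. With the replicate number as a block, 12, 25, 24, 22, 20 and 12 members were called in the order given above. Signals near background limit what can be said of the 14 dim members and of Ugt3a2, Ugt2b1, Gsto2 and Sult5a1, each under the background level in at least 1 group.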
